A study of Mus musculus with 19 samples.

Results

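The 10 circadian clock genes described here, called the members, were followed across mouse bronchoalveolar lavage cells: Clock, Per1, Per2, Per3, Cry1, Cry2, Nr1d1, Nr1d2, Dbp and Tef. They were taken by gene symbol from the deposited gene tables, 10 of 56941 genes, and all 10 were among the 20501 genes with enough counts to be tested. The cells are labelled alveolar macrophages, the resident phagocytes of the air spaces, and came from female mice of 7 to 8 weeks of age of a C57Bl/6J wild type or an ICAM-1 null genotype. The groups held 4 naive wild type, 5 naive ICAM-1 null, 5 exposed wild type and 5 exposed ICAM-1 null libraries. Libraries are called mice below and numbered by their sample titles, though the labels do not name animals. Exposed mice received 100 uL of Staphylococcus aureus pHrodo-labelled bioparticles at 2.27 mg/mL in PBS, by oropharyngeal aspiration under isoflurane, and were lavaged 1 hour later. The labels do not say whether naive mice had a vehicle or the anaesthetic before lavage, whether the null line and the wild type mice were littermates, or at what hour of the day any mouse was lavaged.

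The mammalian clock is a transcriptional feedback loop that runs in nearly every cell. The activators CLOCK and BMAL1 (gene symbol Arntl in the tables) bind E-box sequences and drive the Per and Cry genes, whose proteins return to inhibit the activators. CLOCK and BMAL1 also drive Nr1d1 and Nr1d2, which encode the repressors REV-ERB alpha and beta of Arntl, and Dbp and Tef, whose products bind D-box sequences. In peripheral tissues, the lung included, these genes rise and fall over the day, with Arntl roughly opposite in time to Nr1d1, Dbp and the Per genes, so the hour of collection is one determinant of their level. Per1 is in addition a known direct target of the glucocorticoid receptor.

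Stretches of promoter are shown for the members in which these boxes were found, as context for the members that moved together from mouse to mouse. In the 250 bases upstream of the annotated starts (RefSeq, GRCm38.p6), 9 of the 10 members had an entry, with 13 windows in all; Per2 had none. Both strands were searched for the E-box CACGTG, the D-box TTATGTAA or TTACGTAA, the RORE TAGGTCA and the CRE TGACGTCA. The capitals mark the matches, and each sequence is written 5′ to 3′ on the strand of the gene.
Per1, chr11:69098743-69098828, + strand: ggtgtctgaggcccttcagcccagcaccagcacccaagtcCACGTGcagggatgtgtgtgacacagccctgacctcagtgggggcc
Per3, chr4:151044776-151044910, - strand: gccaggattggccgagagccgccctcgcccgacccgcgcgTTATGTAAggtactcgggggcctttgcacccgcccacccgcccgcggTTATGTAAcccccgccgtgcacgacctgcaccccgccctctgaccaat
Cry1, chr10:85185069-85185154, - strand: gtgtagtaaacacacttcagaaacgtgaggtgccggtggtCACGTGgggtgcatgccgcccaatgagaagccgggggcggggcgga
Tef, first window, chr15:81802506-81802591, + strand: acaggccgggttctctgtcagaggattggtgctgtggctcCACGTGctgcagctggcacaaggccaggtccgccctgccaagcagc
Tef, second window, chr15:81811236-81811321, + strand: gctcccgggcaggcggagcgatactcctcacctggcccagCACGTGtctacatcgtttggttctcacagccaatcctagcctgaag
An E-box was present in 4 of the 13 windows, against 6.02% of 32851 promoter windows of the same length. The D-box was present in 1 of the 13, the Per3 window, which held it 2 times, against 0.931% of all windows. RORE and CRE matches were found in 0 of the 13, against 2.23% and 1.55%. Of the members described further on as low and high in the same exposed mice (Per2, Tef, Nr1d2, Cry2 and Nr1d1), Tef alone held a match; Nr1d1, Nr1d2 and Cry2 held none in these windows. A match or its absence describes these letters only and says nothing of binding.

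The targeted gene and the cell labels were checked first. Icam1 lay between 4.88 and 13.2 TPM (transcripts per 1000000, a level scaled for gene length) in the 10 null libraries, between 63.8 and 85.9 in naive wild type and between 722 and 1079 in exposed wild type libraries. The summed level of 8 alveolar macrophage markers was 19700 to 27400 TPM over all libraries, with no marker at 0 throughout a group. Airway epithelial markers (8 genes) summed to 440 to 653 TPM in naive wild type, 286 to 501 in naive null, 1160 to 3570 in exposed wild type and 594 to 1230 in exposed null libraries. Erythroid markers (4 genes) summed to 134 to 408, 97.3 to 351, 369 to 2390 and 129 to 350 TPM in the same order, and neutrophil markers (8 genes) to 44.9 to 58.9, 136 to 148, 38.8 to 76.5 and 90.2 to 117, with 1 or 2 of the 8 at 0 in every library of a group. These marker levels moved with exposure or genotype, and their part in the results that follow was not tested. In bulk RNA, fewer cells of a type and less RNA per cell cannot be told apart.

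Per1 had the highest mean level of the members in naive wild type cells, at 44.4 ± 23.5 TPM (SD, n = 4). Nr1d2 at 25.6 ± 4.35 and Nr1d1 at 25.1 ± 3.22 TPM followed and did not differ beyond their spread. Clock (13.7 ± 1.82), Tef (12.1 ± 3.98), Cry1 (11.5 ± 2.31) and Per2 (8.23 ± 2.57 TPM) formed a middle range in which neighbours overlapped. Per3 (2.39 ± 0.258), Cry2 (1.88 ± 0.582) and Dbp (1.52 ± 0.377 TPM) were low. Per1 was also highest in naive null cells (55.2 ± 25.4 TPM) and, within the spread of Cry1, in exposed wild type cells (32.5 ± 8.26 against 30.8 ± 4.57 TPM; SD, n = 5 each). In exposed null cells Cry1 had the highest mean, 32.03 ± 7.31 TPM (SD, n = 5), with Per1 within its spread at 25.7 ± 9.55, Clock at 19.003 ± 2.21, Nr1d1 at 13.0 ± 2.57 and Nr1d2 at 11.2 ± 3.42 TPM. There Cry2, Per3 and Dbp were again the lowest 3, at 1.60 ± 0.745, 1.32 ± 0.556 and 1.13 ± 0.544 TPM. Dbp, a strongly rhythmic output gene in many tissues, rested on only 27 to 130 estimated counts per library.

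Exposure to bioparticles was compared with the naive state within each genotype, and Cry1 was the member that changed most. In wild type cells 2 of 10 members passed an adjusted p of 0.05 (edgeR's quasi-likelihood test, adjusted over all tested genes), Cry1 upward and Nr1d1 downward. Of all 20501 genes, 40.2% passed in that comparison, 20.1% upward and 20.2% downward. In ICAM-1 null cells 3 of 10 passed, Cry1 upward and Nr1d1 and Nr1d2 downward, against 44.8% of all genes, 21.4% upward and 23.4% downward. The members were thus called no more often than genes in general. Their median log2 fold change was 0.01 in wild type and -0.04 in null cells, beside 0.02 for all genes in both.

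**Figure D1:**
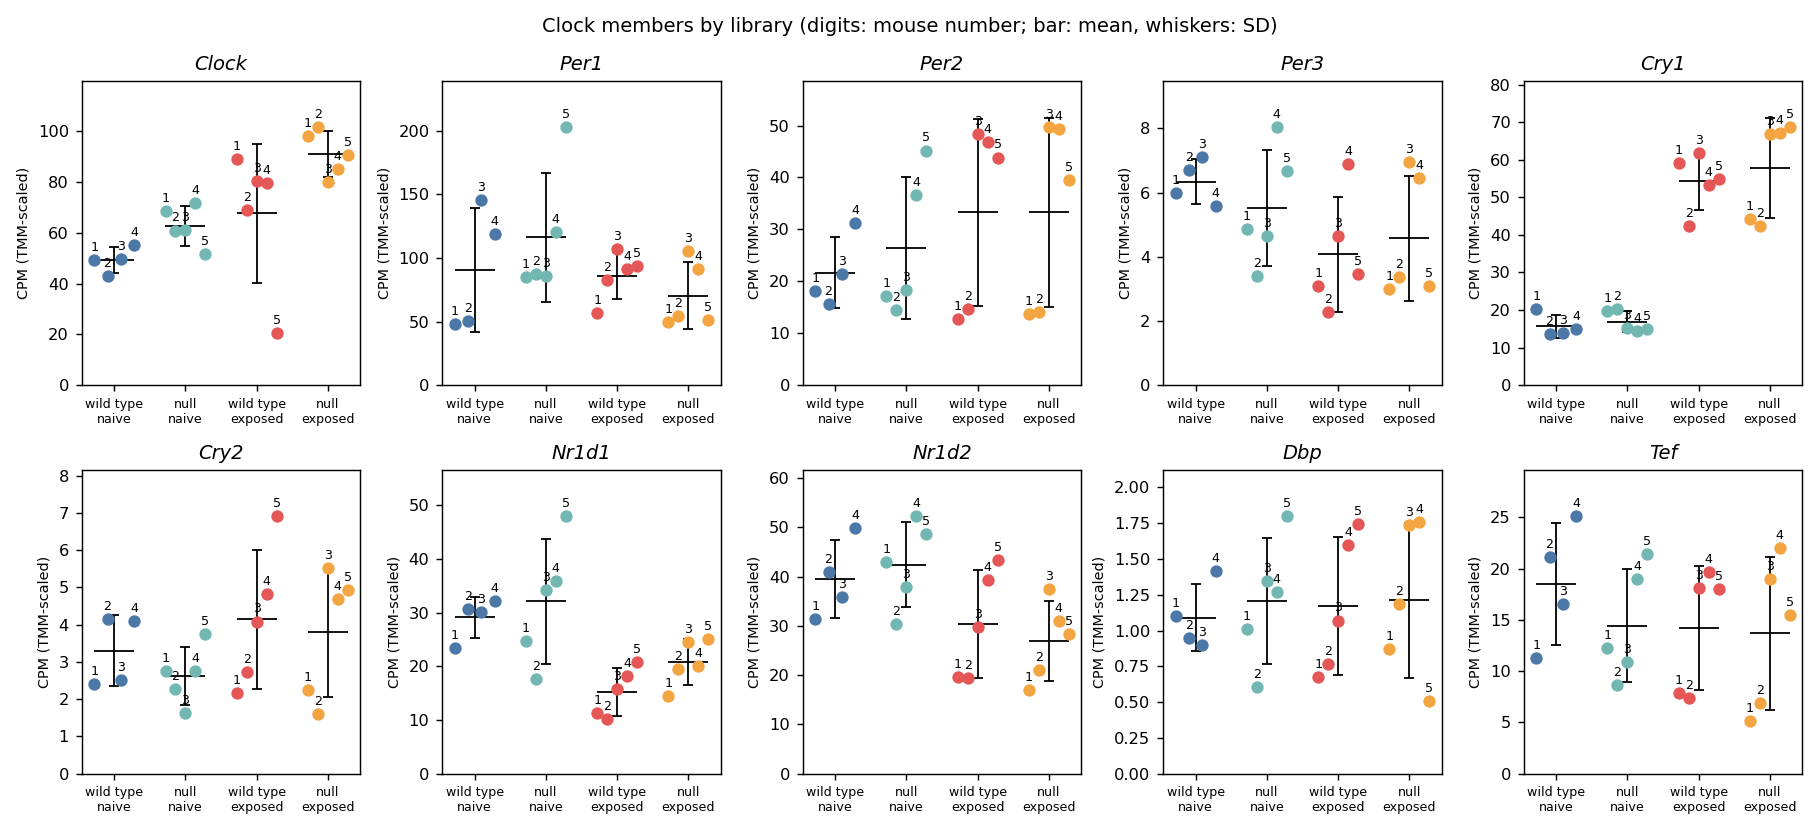
Level of each member in CPM (estimated counts per 1000000, scaled by TMM library factors) in the 19 libraries, by group; points are mice labelled with their number, the long bar is the mean and the whiskers are the SD. Cry1 in exposed mice sits between 42.3 and 68.7 CPM, above every naive mouse, and Per2 in exposed mice falls into a low and a high set.

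Cry1 (ENSMUSG00000020038.11, chr10:84967564-85020928 on GRCm39, - strand) encodes cryptochrome 1, a repressor of CLOCK and BMAL1. In CPM, which suits comparisons of 1 gene between libraries, it stood in naive wild type mice at 20.2, 13.6, 13.8 and 14.99 CPM, and in exposed wild type mice at 59.1, 42.3, 61.8, 53.4 and 54.8 CPM (mice 1 onward). In naive null mice it stood at 19.9, 20.2, 15.3, 14.3 and 14.9 CPM, and in exposed null mice at 44.2, 42.4, 67.0, 67.2 and 68.7 CPM. Every exposed mouse was above every naive mouse of its genotype, a separation upward shown by 16.6% of all genes in wild type and 16.1% in null mice. The log2 fold change was 1.80 (SE 0.17, adjusted p = 3.32e-08, edgeR) in wild type and 1.78 (SE 0.16, adjusted p = 7.27e-09, edgeR) in null cells. The call was kept in all alternative fits and with each library left out. Its sister gene Cry2, also a repressor, had log2 fold changes of 0.32 (95% interval -0.43 to 1.07) and 0.53 (-0.17 to 1.23) and passed in neither genotype.

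Nr1d1 (ENSMUSG00000020889.12, chr11:98658758-98666159 on GRCm39, - strand) and Nr1d2 (ENSMUSG00000021775.12, chr14:4230569-4265642, + strand) encode the nuclear receptors that repress Arntl. Nr1d1 was at 23.5, 30.7, 30.1 and 32.2 CPM in naive wild type and at 11.4, 10.2, 15.7, 18.3 and 20.8 CPM in exposed wild type mice. Every exposed wild type mouse was below every naive one, a separation downward shown by 16.8% of all genes (in null mice, where no member separated downward, by 18.4%). The log2 fold change was -0.93 (SE 0.24, adjusted p = 0.00316, edgeR). In null mice the Nr1d1 values overlapped, at 24.8, 17.6, 34.2, 36.0 and 48.0 CPM naive and 14.6, 19.5, 24.6, 20.0 and 25.2 CPM exposed, and the fold change was -0.63 (SE 0.22, adjusted p = 0.026, edgeR). Nr1d2 in null mice was at 43.0, 30.4, 37.9, 52.3 and 48.7 CPM naive and at 17.1, 21.1, 37.5, 30.9 and 28.4 CPM exposed. These groups also overlapped, and the change was -0.65 on the log2 scale (SE 0.23, adjusted p = 0.0232, edgeR). In wild type mice Nr1d2 had a log2 fold change of -0.39 (95% interval -0.89 to 0.11, adjusted p = 0.215, edgeR). Both calls in null mice were close to the threshold and were lost without naive null mouse 4 or 5, or exposed null mouse 1 or 2, while the direction was kept. Nr1d1 then had -0.58, -0.44, -0.52 and -0.61 on the log2 scale, with adjusted p of 0.0565, 0.11, 0.0735 and 0.051. Nr1d2 had -0.57, -0.60, -0.53 and -0.58, with adjusted p of 0.064, 0.0529, 0.0683 and 0.0614. On the TPM scale, where the median of all genes lay at -0.22 (log2) in wild type and -0.19 in null comparisons, Nr1d2 also passed in wild type mice, with -0.97 and an adjusted p of 0.00145 (limma). Nr1d1 overlaps Thra on the opposite strand by 1075 bases, and no label or header names the strand setting of the counting, so reads there cannot be assigned with certainty. Thra itself fell by 0.54 and 0.29 on the log2 scale in wild type and null cells (adjusted p = 0.000164 and 0.0137, edgeR; named after its values were seen). Without naive null mouse 5 its null value was -0.23 with an adjusted p of 0.0523 (edgeR).

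The Period genes encode the partners of the cryptochromes, and none of the 3 passed on exposure in the edgeR fit of all libraries, though Per1 and Per3 passed in others. Per1 (ENSMUSG00000020893.18, chr11:68986043-69000786 on GRCm39, + strand) had log2 fold changes of -0.08 (95% interval -0.75 to 0.60) in wild type and -0.72 (-1.36 to -0.08, adjusted p = 0.0625, edgeR) in null cells. In null mice it stood at 85.1, 87.0, 86.0, 120 and 203 CPM naive and 49.4, 54.6, 106, 91.2 and 51.2 CPM exposed, so that 3 of the 5 exposed mice were below every naive mouse. Its null value passed in 5 of the 19 fits with 1 library left out and did not pass in the rest. The adjusted p of these 5 ran from 0.0257 without exposed null mouse 3 to 0.0494 without exposed null mouse 4 (edgeR). The other passing fits were without naive null mouse 1 (0.0491) and naive wild type mouse 1 (0.0471) or 3 (0.0472). Over all 19 fits the null value of Per1 ran from -0.92 to -0.43 on the log2 scale. It also passed with the compared groups alone (0.0445), without naive wild type libraries 1, 2 and 3 (0.029) and on log2(TPM + 1), where it was -1.05 with an adjusted p of 0.0075 (limma). Per2 had 0.62 (-0.33 to 1.57) and 0.33 (-0.55 to 1.22). Per3 had -0.64 (-1.28 to 0.01, adjusted p = 0.11, edgeR) and -0.27 (-0.88 to 0.33). Without exposed wild type mouse 4 the wild type value of Per3 was -0.91 with an adjusted p of 0.0222 (edgeR), and on log2(TPM + 1) it was -0.65 with an adjusted p of 0.0101 (limma). Per3 lies within the annotated span of Camta1 on the same strand, and Camta1 stood at 5.01 to 9.18 TPM.

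The activator Clock and the D-box factors Dbp and Tef did not pass in the edgeR fit of all libraries either, though Clock and Tef passed in others. Clock (ENSMUSG00000029238.12, chr5:76357715-76452639 on GRCm39, - strand) was at 49.2, 43.0, 49.9 and 55.4 CPM in naive wild type and 89.0, 69.2, 80.6, 79.7 and 20.5 CPM in exposed wild type mice. All exposed wild type mice but mouse 5 were above all naive ones, and mouse 5 was below all of them. With all libraries the log2 fold change was 0.46 (95% interval -0.05 to 0.97, adjusted p = 0.147, edgeR). Without mouse 5 it was 0.69 with an adjusted p of 3.06e-05 (edgeR). In null mice Clock stood at 68.7, 60.9, 61.2, 71.9 and 51.6 CPM naive and 98.3, 102, 79.9, 85.1 and 90.8 CPM exposed, with every exposed mouse above every naive one. Its fold change there was 0.54 (0.06 to 1.01, adjusted p = 0.0626, edgeR). The spread per gene was estimated over all 4 groups. Without wild type exposed mouse 5 the null value was 0.54 with an adjusted p of 9.74e-05 (edgeR). With the compared groups alone it was 0.55 with an adjusted p of 0.000288 (edgeR). Dbp had log2 fold changes of 0.09 (-0.70 to 0.88) and 0.01 (-0.73 to 0.74), and Tef had -0.38 (-1.19 to 0.43) and -0.08 (-0.84 to 0.69). On log2(TPM + 0.1), where the median of all genes was -0.34, the wild type value of Tef was -0.91 (adjusted p = 0.0487, limma). Dbp overlaps Sphk2 on the opposite strand by 737 bases.

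**Figure D2:**
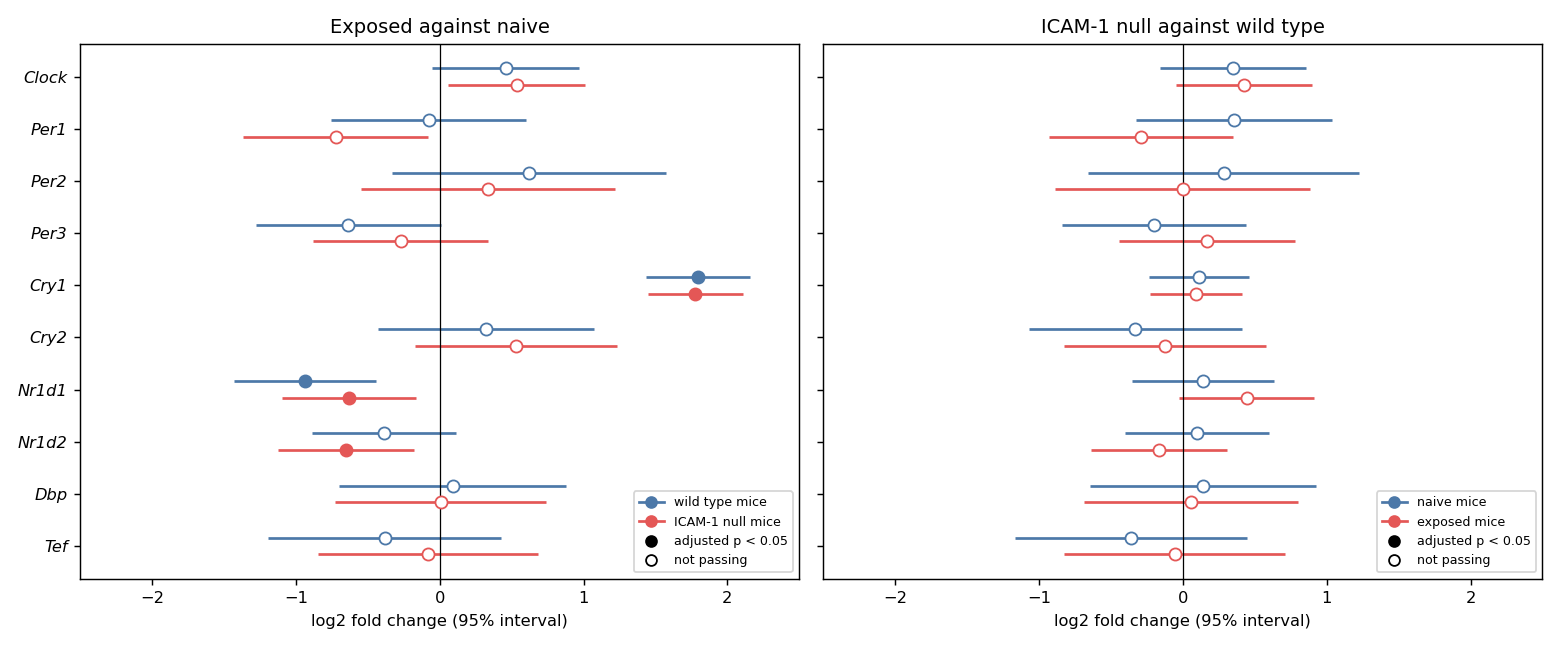
Log2 fold change with its 95% interval for each member, exposed against naive (left, by genotype) and ICAM-1 null against wild type (right, by exposure); filled points passed an adjusted p of 0.05. Cry1 lies at 1.80 and 1.78 on the left, and no point on the right is filled.

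No member passed between the genotypes in the edgeR fit of all libraries, and single members passed in a few other fits. In naive mice 0 of 10 members passed (edgeR; 0 at an unadjusted p under 0.05, and 0 by DESeq2 and by limma on TPM), against 6.86% of all genes. The fold changes, null over wild type, ran from -0.36 for Tef to 0.36 for Per1 on the log2 scale. The 95% intervals reached from -1.17 (Tef) to 1.23 (Per2). Differences of about the size seen for Nr1d1 on exposure in wild type mice were thus not resolved for Tef, Per2, Per1 and Cry2. The intervals of Nr1d1 (-0.35 to 0.63) and Nr1d2 (-0.40 to 0.60) were narrower. In exposed mice 0 of 10 passed (edgeR; 0 unadjusted, 0 by DESeq2 and limma), against 8.48% of all genes. The fold change farthest from 0 there was that of Nr1d1, 0.44 (-0.02 to 0.91, adjusted p = 0.283, edgeR). The interval of Cry1 was narrower, from -0.23 to 0.46 in naive and -0.23 to 0.41 in exposed mice. A test of whether the exposure response itself differed between genotypes gave 0 of 10 members (edgeR; 0 unadjusted, 0 by DESeq2 and limma), against 0.332% of all genes. That difference was -0.02 (-0.49 to 0.45) for Cry1, 0.30 (-0.37 to 0.98) for Nr1d1 and -0.27 (-0.95 to 0.42) for Nr1d2, so the call of Nr1d2 in null and not in wild type mice is not shown to be a difference between them. Clock passed between naive genotypes without wild type exposed mouse 5, at 0.35 with an adjusted p of 0.0404 (edgeR), and with the compared groups alone, at 0.33.

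A list of 23 further genes of the clock pathway was described beside the members, and 21 of them were tested. On exposure 8 rose and 1 fell in wild type cells, 42.9% of those tested, and 9 rose and 2 fell in null cells, 52.4%. These shares lie near those of all genes, 40.2% and 44.8%, so the values below describe single genes and not the list. Bhlhe40, which encodes the E-box repressor DEC1, rose by 2.12 (SE 0.13) on the log2 scale in wild type and 2.43 (SE 0.12) in null cells (adjusted p = 1.4e-11 and 2.94e-13, edgeR). Its level went from 170 to 203 TPM in naive to 523 to 815 TPM in exposed wild type mice. Its relative Bhlhe41 (DEC2) rose by 0.99 and 0.72. Rora, an activator of Arntl, rose by 1.19 and 1.36, and Nfil3, which competes with DBP and TEF for the D-box, rose by 0.88 and 1.02. Among genes that act on PER proteins, the F-box gene Fbxw11 rose by 1.19 and 1.12, whereas its relative Btrc was at 0.10 and 0.01 and passed in neither genotype. The casein kinase 1 genes Csnk1a1 (0.58 and 0.66), Csnk1d (0.35 and 0.55) and Csnk1e (0.33 and 0.51) passed in both, but on log2(TPM + 1) the wild type values of Csnk1d and Csnk1e were -0.03 and -0.06 and did not pass (limma). Gsk3b and Skp1 passed in neither genotype. Timeless, known in mammals chiefly for its part in DNA replication, fell by 1.13 and 1.45. In null cells Wdr5 rose by 0.31 and Prkaa1, a subunit of AMP-activated kinase, fell by 0.17. The Wdr5 value was -0.05 on log2(TPM + 1). The Prkaa1 call was lost without naive null mouse 1, 2 or 5 or exposed null mouse 1, 2, 4 or 5 (adjusted p = 0.0531 to 0.101, edgeR). It was also lost with RLE factors (0.0773) and with a replicate block (0.0579, edgeR). The wild type values of Wdr5 and Prkaa1, 0.15 and 0.07, did not pass, and the interaction test called 0 of the 21 genes (edgeR). Arntl had -0.12 (adjusted p = 0.709, edgeR) and -0.32 (adjusted p = 0.207, edgeR). Between genotypes, Bhlhe40 was lower by 0.51 (a log2 fold change of -0.51, adjusted p = 0.00747, edgeR) and Prkaa1 higher by 0.27 (adjusted p = 0.0185, edgeR) in naive null than naive wild type cells, 9.52% of those tested against 6.86% of all genes. The Prkaa1 call was lost without naive wild type mouse 3 (adjusted p = 0.062) or naive null mouse 1 (0.0509) or 2 (0.0502, edgeR), and on log2(TPM + 1) (0.164, limma). Without naive wild type libraries 1, 2 and 3 the values were -0.35 for Bhlhe40 and 0.20 for Prkaa1. Rora was higher by 0.43 in exposed null cells (adjusted p = 0.0164, edgeR), 1 of 21 genes or 4.76% against 8.48% of all genes. Its call was lost without exposed null mouse 2 (adjusted p = 0.0578, edgeR) and on log2(TPM + 1) (0.123, limma).

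**Figure D3:**
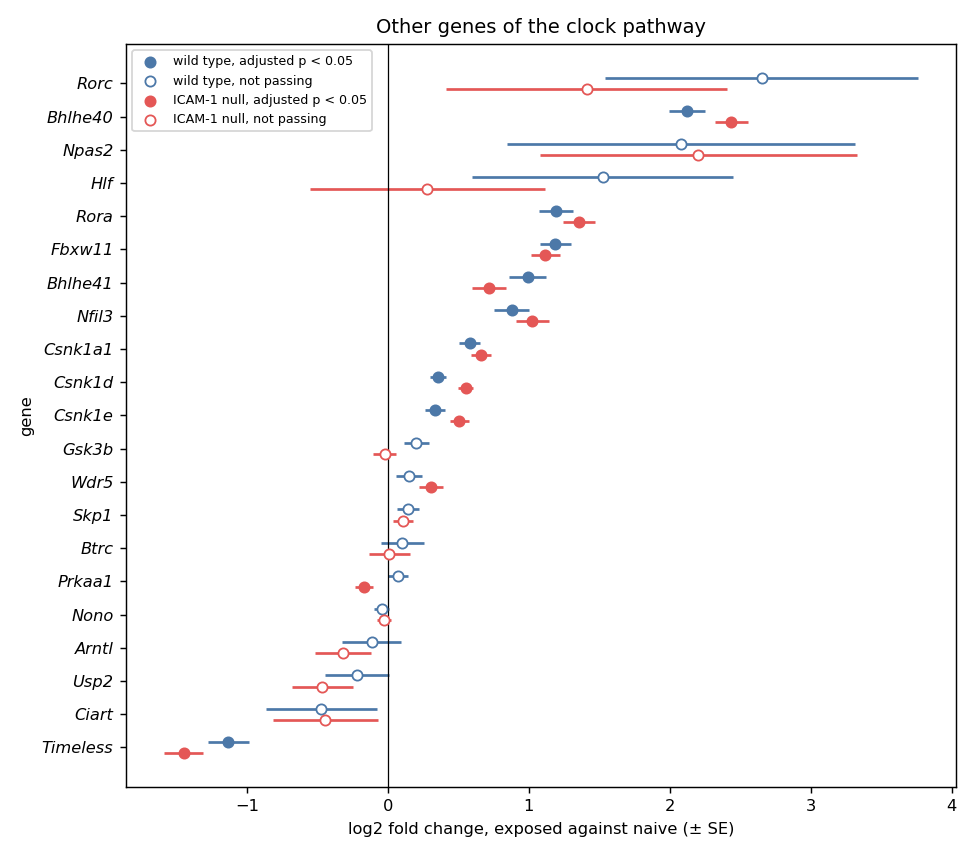
Log2 fold change, exposed against naive, of the 21 tested further genes of the clock pathway, with whiskers of 1 SE; filled points passed an adjusted p of 0.05. Bhlhe40 at 2.12 and 2.43 is the highest filled point and Timeless at -1.13 and -1.45 the lowest in both genotypes.

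Per2, Tef and Per1 varied more between mice of the same group than most genes with a mean of at least 1 TPM. The within-group SD of log2(TPM + 1) was 0.729 for Per2, higher than for 99.3% of 14155 genes with a mean of at least 1 TPM, whose median was 0.2. Tef (0.562) stood at the 97.8th, Per1 (0.56) at the 97.7th, Nr1d2 at the 90.6th and Nr1d1 at the 90.3rd percentile. Cry1, at the 70.2nd percentile, varied least of the 10 on this measure. The spread that edgeR estimates from the counts, a biological coefficient of variation, placed the members lower among the same genes. Per2 (0.46) was at the 94.1st percentile, Tef at the 91.1st, Per1 at the 86.0th, Nr1d2 at the 75.2nd and Nr1d1 at the 74.7th. Among all 20501 tested genes, which include many of low count, Per2 was at the 70.5th and Nr1d1 and Nr1d2, at the 51.8th and 52.2nd, were near the median.

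Per2 (ENSMUSG00000055866.10, chr1:91343704-91387046 on GRCm39, - strand) in exposed wild type mice was at 12.7, 14.6, 48.4, 46.8 and 43.8 CPM. In exposed null mice it was at 13.6, 14.1, 49.6, 49.4 and 39.4 CPM. Mice 1 and 2 of each genotype were thus low and mice 3, 4 and 5 high, with nothing between 14.6 and 39.4 CPM. In naive mice the values ran from 15.6 to 31.2 CPM in wild type and from 14.5 to 45.2 CPM in null animals, where mice 4 and 5 (36.6 and 45.2 CPM) stood above mice 1, 2 and 3. Tef (ENSMUSG00000022389.16, chr15:81686622-81711064 on GRCm39, + strand) showed the same order in exposed mice, at 7.88, 7.37, 18.1, 19.7 and 18.0 CPM in wild type and 5.09, 6.87, 18.98, 22.02 and 15.4 CPM in null mice. Cry2 was at 2.18, 2.73, 4.09, 4.81 and 6.91 CPM in wild type and at 2.25, 1.60, 5.52, 4.69 and 4.94 CPM in null mice. Together with Nr1d1 and Nr1d2, whose values are given above, 5 of 10 members had mice 1 and 2 below mice 3, 4 and 5 in both exposed groups, an order shown by 3.34% of all tested genes. The members are not independent of each other, and this order was looked for after the values had been seen. Per1, Per3 and Dbp had it in wild type mice only and Cry1 in null mice only. Arntl had the opposite order in both, at 11.6, 11.2, 9.94, 7.88 and 7.21 CPM in wild type and 10.9, 10.1, 7.27, 5.64 and 5.56 CPM in null mice.

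Library depth and airway epithelial markers were set beside that order, and their part in it was not tested. The totals of exposed wild type mice 1 and 2 were 59.5 M and 52.1 M estimated counts, against 61.0 M, 53.4 M and 42.6 M for mice 3, 4 and 5. In exposed null mice they were 57.0 M and 66.3 M, against 58.3 M, 59.6 M and 60.7 M (M, 1000000). Summed airway epithelial markers were 1194 and 1567 TPM against 1164, 1977 and 3571 in wild type, and 1230 and 917 against 604, 958 and 594 in null mice. The numbers are those in the sample titles; the labels do not say what they stand for, and the hour of collection, handling order and mouse cannot be told apart.

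**Figure D4:**
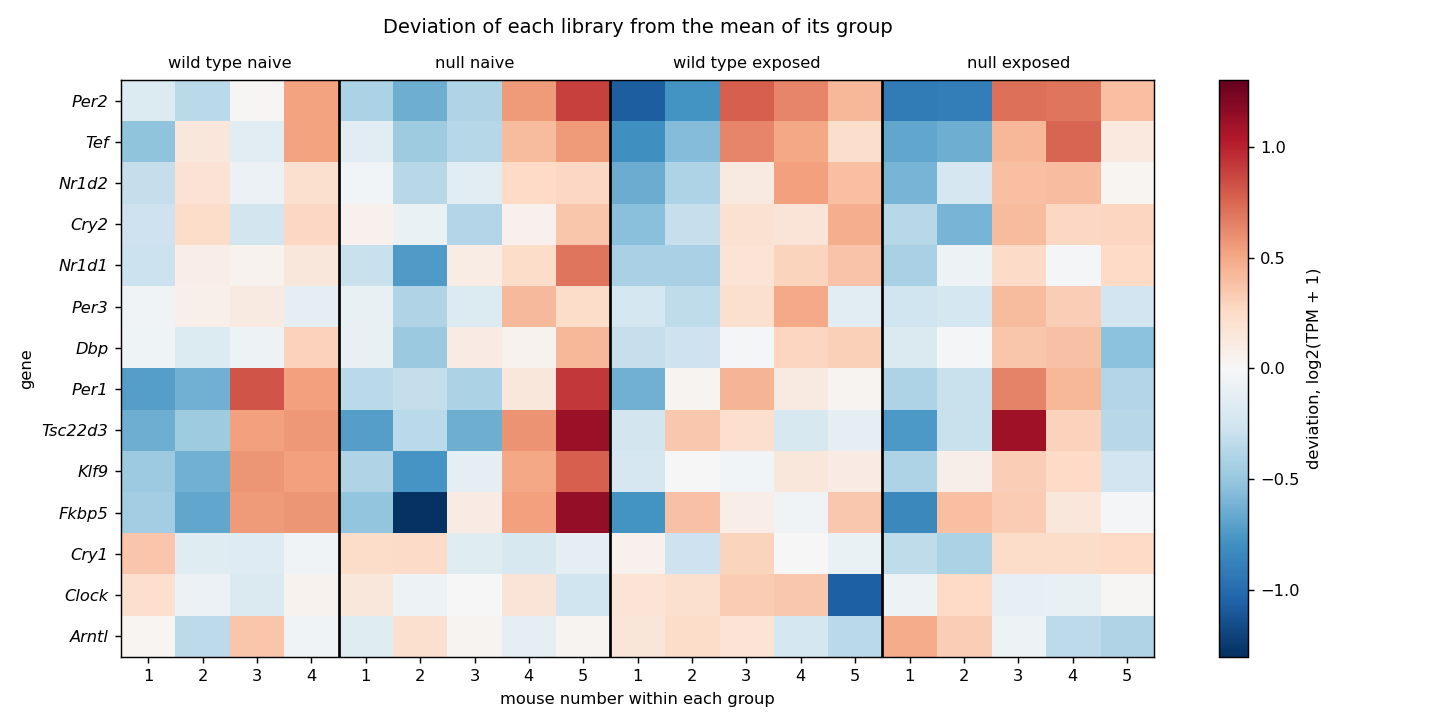
Deviation of each library from the mean of its own group, in log2(TPM + 1), for the members with Arntl and 3 glucocorticoid-responsive genes (Tsc22d3, Klf9, Fkbp5); columns are mice in each group. In both exposed groups Per2, Tef, Nr1d2, Cry2 and Nr1d1 are low in mice 1 and 2, though Nr1d1 in exposed null mouse 2 is only at -0.06. Arntl is above its group mean in mice 1 and 2 of both exposed groups and also in exposed wild type mouse 3. Per1 follows Tsc22d3 and Klf9 in the naive groups.

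The genes whose within-group pattern was most like a member's were ranked by Pearson correlation of log2(TPM + 1), centred on each group, over the 19 libraries and 14154 other genes, as a description with no test. The libraries share depth and handling across all genes. For Per2 (chosen after values were seen) the highest of all genes was Tef, at 0.944. For Tef, also chosen afterwards, Per2 was followed by Nr1d2 at 0.92, and Cry2 ranked at place 4 with 0.875. Genes outside the clock lists were about as close, such as Ms4a8a (0.9) and Pfkl (0.881) for Per2 and Kat2a (0.916) for Tef. The lowest were Spata24 for Per2 (-0.895) and Mbd2 for Tef (-0.898). Rbm3, a cold-inducible RNA-binding protein gene, was among the 4 lowest for both Per2 (-0.832) and Tef (-0.828). Arntl lay near the low end for Cry2 (-0.72), Nr1d2 (-0.709) and Tef (-0.607). Cry1 and Clock were less like Per2, at 0.35 and -0.208. For Nr1d1 and Cry1, also chosen afterwards, the highest were Ptpn1 (0.885) and Rpl10a-ps4 (0.848). No clock gene of the lists was among the 6 highest of either. For Dbp, whose counts are few, the highest were Dpep3 (0.91), L3mbtl3 (0.846), Clec2l (0.791), Dimt1 (0.767), Klhl6 (0.763) and Ogfrl1 (0.749), and the lowest Fam177a2 (-0.825), Fam177a (-0.817), Hdac8 (-0.812) and F11r (-0.786), none of them a clock gene of the lists.

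Per1 followed the other members in part and the glucocorticoid-responsive genes Tsc22d3, Klf9 and Fkbp5 more closely. For the other genes of the glucocorticoid list no correlation with Per1 is given. The highest named gene for Per1 was Tsc22d3 (0.89), which encodes the glucocorticoid-induced leucine zipper, followed by Klf9 (0.861), another glucocorticoid-induced gene, Adamtsl4 (0.856), Sla (0.838) and Tars2 (0.838). One predicted gene was also among the 6 highest. The lowest were Mettl27 (-0.797), Egfl7 (-0.789) and Commd10 (-0.781), with 1 predicted gene. Per2 was at 0.71 and Tef at 0.676. Such likeness was not limited to Per1: Nr1d1 had 0.758 with Fkbp5, where Per1 had 0.753, and Dbp had 0.706 with Klf9. In naive wild type mice Per1 was at 48.3, 50.8, 145 and 119 CPM, Tsc22d3 at 148, 166, 338 and 346 CPM and Klf9 at 25.8, 22.7, 56.0 and 54.0 CPM. Mice 1 and 2 were low and mice 3 and 4 high for all 3 genes, whereas Per2 in the same mice was at 18.2, 15.6, 21.4 and 31.2 CPM. In naive null mice Tsc22d3 was at 205, 271, 230, 517 and 718 CPM, with mice 4 and 5 highest as they were for Per1. Mice 4 and 5 were also the highest for Per2, Per3, Tef, Cry2, Nr1d1 and Nr1d2, though not for Clock, Cry1 or Dbp. That order thus does not set Per1 apart from most other members. In exposed wild type mice Tsc22d3 ran from 99.9 CPM in mouse 4 to 141 CPM in mouse 2. There Per1 was instead lowest in mouse 1 and highest in mouse 3, and Klf9 was lowest in mouse 1 and highest in mouse 5. In exposed null mice Tsc22d3 ran from 52.0 CPM in mouse 1 to 197 CPM in mouse 3. Per1 and Klf9 were also lowest and highest in those null mice.

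Of 10 glucocorticoid-responsive genes, 5 rose and 2 fell on exposure in wild type and 4 rose and 2 fell in null cells, so the list did not move one way. That is 70% and 60% of the list, against 40.2% and 44.8% of all genes. Cdkn1a rose by 2.08 and 2.07, Sgk1 by 1.52 and 1.26, and Errfi1 by 1.22 and 1.31. Pdk4 fell by 1.33 and 2.17, and Tsc22d3 by 1.09 and 1.93 (adjusted p = 0.0235 and 0.000163, edgeR). The wild type call of Tsc22d3 was lost without naive mouse 3 (0.0844) or 4 (0.0884) or exposed mouse 4 (0.0507). The wild type rises of Ddit4 and Nr3c1 were lost without naive mouse 1 (adjusted p = 0.119 and 0.0724, edgeR), among other fits. On log2(TPM + 1) Nr3c1 was at -0.10 in wild type and -0.08 in null cells and did not pass (limma). Between genotypes 2 of 10 passed in naive and 2 of 10 in exposed mice, 20% against 6.86% and 8.48% of all genes. They were Zbtb16 (1.82) and Sgk1 (0.36) in naive and Zbtb16 (1.39) and Pdk4 (-1.52) in exposed mice. The Sgk1 call was lost without naive wild type mouse 1 or 2 or naive null mouse 5 (adjusted p = 0.0624 to 0.0743, edgeR). Both Zbtb16 calls were lost on log2(TPM + 1) (adjusted p = 0.0723 and 0.0603, limma). The exposed Zbtb16 call was also lost without exposed wild type mouse 1, 3 or 5 or exposed null mouse 2.

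Whether the groups stood apart on the daily phases of the clock was described, with no test, by averaging log2(TPM + 0.1) over the genes known to peak towards evening (Nr1d1, Nr1d2, Dbp, Tef and the 3 Per genes). This average was 2.99 to 3.64 in naive wild type and 2.67 to 3.90 in naive null mice, with means of 3.31 and 3.25. In exposed mice it was 1.89 to 3.10 in wild type and 2.00 to 3.15 in null mice, with means of 2.59 and 2.58. The genotypes overlapped at either exposure, and the range within a group was far wider than the gap between genotype means. Exposed means were below naive means, on a scale whose median over all genes was itself lower by 0.34 in wild type and 0.31 in null mice (log2 fold changes of -0.34 and -0.31). The opposite arm of Arntl, Npas2 and Clock ran from 1.21 to 1.28, 1.06 to 1.45, 0.635 to 1.63 and 1.07 to 1.58 in the 4 groups in the order naive wild type, naive null, exposed wild type and exposed null. Npas2 was at 0.195 TPM or less in every library. Without it, a choice made after seeing the values, the ranges were 3.15 to 3.51, 3.25 to 3.45, 2.36 to 3.42 and 2.94 to 3.52, the 2.36 being wild type exposed mouse 5. A difference in collection hour between naive and exposed mice cannot be told apart from exposure in these data.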

How the data were processed

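Poly(A)-selected RNA of lavage cell pellets was sequenced as 2 x 150 bp reads, per the labels' protocols, at a planned 20 M paired reads a library. STAR, version 2 of StringTie and GRCm39 are named in the submitters' processing notes; which strand setting and parameters were used is not given there. The authors deposited whole-number estimated counts per gene and TPM per gene. Library totals were 32.8 M to 80.3 M (M, 1000000) estimated counts, above the planned reads, so these counts may overstate the number of fragments and no counting interval is given.

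The estimated counts were tested with edgeR 4.0.16 (R 4.3.3; limma 3.58.1) by its quasi-likelihood F test. A single model held the 4 groups and all 19 libraries, with TMM factors and filterByExpr (minimum count 10, total 15), Benjamini-Hochberg adjustment over 20501 genes and a threshold of 0.05. The SE is the size of the log2 fold change over the square root of F. CPM are estimated counts per 1000000 scaled by the TMM factors. The fit was tested on simulated data. No 2 of the 36 replicate pairs within groups were identical, and the lowest chi-square per gene was 3.47 when 4 counts were taken as 1 fragment. The labels do not name animals, so p-values measure the spread between these samples. All comparisons of 1 genotype or exposure share libraries.

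Alternatives were RLE factors, no low-count filter, DESeq2 1.42.0, limma on log2 of TPM with a pseudocount of 1 or 0.1, a replicate block, the compared groups alone, and fits without single libraries or without naive wild type libraries 1, 2 and 3. All members were named, as were list genes that passed, and the 6 highest and 4 lowest correlations with Dbp and Per1; predicted genes were counted, not named. The rule for the glucocorticoid list was to name up to 4 genes of smallest adjusted p. Others of that list and the overlapping genes were added after their values were seen. A gene of the clock pathway list is not reported here. The members and the lists were chosen with earlier results of these data known. Gene positions in the tables are GRCm39; promoter sequences are RefSeq's on GRCm38.p6.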

Additional observations from a re-analysis of the deposited data

Results flagged for a closer look

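Clock in wild type exposed mouse 5, at 20.5 CPM, lay far below the other 4 mice of its group (69.2 to 89.0 CPM), with a gap to the nearest mouse of 0.711 of the group's range. It was 1 of 40 sets of a member and a group looked at, and chance alone marks about 1 set in 20. In that library 58 of 14155 genes (0.41%) were low in the same way, the highest number of the 5 exposed wild type libraries (33 to 54 in the other 4). Exposed null mice 1 and 5 had 60 and 62 such genes and naive null mouse 5 had 95, so 58 was not unusual. Wild type exposed mouse 5 had the largest mean deviation from its group of all 19 (0.21, log2). Its summed airway epithelial markers were the highest (3571 TPM). The part of these in the Clock value was not tested. Ube2n-ps1, a pseudogene annotated within Clock on the same strand, was at 12.1 CPM in that mouse and at 12.01 to 13.7 CPM in the other 4.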

How the results depend on the processing

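Over the 50 fold changes of the members and 1340 values under other settings, 1307 kept their side of the threshold, 8 lost the call, 25 gained one and 0 called values changed sign; among those kept, 96 changed sign while below the threshold in both fits. The 8 losses are the Nr1d1 and Nr1d2 values of null mice with 1 library left out. In wild type mice the members called were 4 with a replicate block, 4 on log2(TPM + 1) and 5 on log2(TPM + 0.1), against 2. In null mice they were 5 with the replicate block, 5 with the compared groups alone and 1 to 4 with 1 library left out, against 3. Between naive genotypes 1 member was called with the compared groups alone and 0 to 1 with 1 library left out, and between exposed genotypes 1 with the replicate block, Nr1d1 at 0.47 (adjusted p = 0.0417, edgeR). On exposure the block also called Per3 (0.0295) and Nr1d2 (0.0247) in wild type and Per1 (0.0142) and Clock (0.0363) in null mice. Correlations of deviations over 27 pairs of libraries with the same number ran from -0.048 to 0.073, with 5 best with their own number. Among those 5 were numbers 1, 2 and 3 between exposed wild type and exposed null mice. Taken over all genes, such correlations cannot show whether libraries of the same number were handled together. Over all genes, leaving out naive wild type libraries 1, 2 and 3 gave 4253 calls in wild type mice, 321 between naive genotypes and 10 in the interaction. The interaction also gave 38 calls with no filter, 110 on log2(TPM + 1), 266 by DESeq2 and 34 to 82 with 1 library left out, against 68. TPM gave 2251 genes higher and 8402 lower on exposure in wild type mice, where edgeR gave 4111 and 4134; in null mice the splits were 2236 and 8414 against 4387 and 4793. The cause was not tested in any of these. The compared groups alone were not run for the interaction, which uses all 4 groups. The fewest counts were those of Dbp, 27 to 130 per library.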
